A study of Mus musculus with 15 samples.

Results

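Both groups of control livers that were fed the non-alcoholic steatohepatitis (NASH) diet are described here, set against each other. These are 6 of the 15 liver RNA sequencing libraries of the series: 3 from mice given a GFP vector and 3 from mice given a scrambled hairpin vector. The members were told apart by the sample titles, which name the promoter and control of these 6 libraries but neither the diet nor GFP. All mice of the series were male C57BL/6J and received an adeno-associated virus (AAV). In the GFP group the AAV8 vector expressed green fluorescent protein from the thyroxine binding globulin (TBG) promoter, which is active in the liver. In the scramble group an AAV8 vector carried an H1 promoter and a short hairpin RNA of scrambled sequence. Both groups ate the FPC NASH diet with sugar water for 16 weeks. The other 3 groups serve for reference: Activin A from the TBG promoter and a hairpin against Gpnmb from the H1 promoter, both on the NASH diet for 16 weeks, and GFP from the TBG promoter on standard chow for 16 weeks. No mouse in the series went without a vector. The labels give no age, vector dose or date of injection, collection or extraction, so promoter, cargo, cohort and collection cannot be told apart in the differences below. Nor do they state that each library is a different animal, so a p-value here speaks of the spread among these samples, part of which may be technical.

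AAV8 enters hepatocytes after injection and its genome persists mainly outside the chromosomes. The TBG promoter is read by RNA polymerase II and drives a protein in hepatocytes. The H1 promoter is read by RNA polymerase III in any cell that holds the vector, and its hairpin enters the microRNA pathway. GFP and scrambled hairpins are both used as inert cargo, so that the mice differ from treated mice only in the gene delivered. Liver transcripts also follow feeding, stress, time of day and the handling of the tissue, and many of them respond within an hour.

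Library totals were 18020542 to 20530309 counts in the GFP group and 20435244 to 23467867 in the scramble group. Levels are given as counts per 1000000 (CPM), scaled with TMM factors (trimmed mean of M values) over all 15 libraries. Albumin took 4.53% to 5.10% of the counts in GFP libraries and 4.81% to 5.27% in scramble libraries, as liver tissue would. Between 20103 and 20690 genes had a count in the GFP libraries and 21469 to 21796 in the scramble libraries. With every library thinned to 15276879 counts the ranges were 19887 to 20257 and 20792 to 21307, and no other library of the series passed 20266. The Y-linked gene Ddx3y stood at 68.4 to 82.7 CPM in GFP libraries and 65.6 to 76.8 CPM in scramble libraries, while Xist, the RNA of the inactive X chromosome, did not pass 0.18 CPM in any of the 6, as the male labels require. Gpnmb, a glycoprotein gene of lipid-laden macrophages and the target of the hairpin used elsewhere in the series, stood at 40.4, 25.9 and 24.9 CPM in the GFP libraries and 26.2, 36.4 and 32.8 CPM in the scramble libraries, and at 1.26 to 3.30 CPM in the livers given the hairpin against it. The control groups overlapped for Gpnmb (log2 difference 0.04 ± 0.19 (SE), edgeR adjusted p = 0.931).

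Some libraries stood apart from the others of their group. Scramble library 3 lay between scramble libraries 1 and 2 for 50.6% of 14382 genes. Over the 404 genes for which libraries 1 and 2 differed by more than 1.5-fold, it lay at a median of 0.51 of the way from one to the other (quartiles 0.41 and 0.61). Activin A library 3 was like it to a lesser degree, with a median of 0.55 (quartiles 0.41 and 0.72) over 289 genes. The next narrowest pair of quartiles among the 15 libraries was 0.08 and 0.59. Activin A library 3 lay between libraries 1 and 2 of its group for 40.2% of 13377 genes. That share was close to the 39.2% of chow GFP library 1. No label says that libraries share RNA. A library in the middle lowers the spread of its group, so results are also given without it. GFP libraries 2 and 3 were at opposite ends of other genes: library 2 was high in acute phase transcripts and library 3 low in those of fat and sterol synthesis, with values given below.

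The GFP and scramble livers were about as far from each other as the GFP livers were among themselves. The root mean square difference of log2 CPM over 15665 genes was 0.562 to 0.682 for the 9 pairs of a GFP and a scramble library (median 0.599). It was 0.541 to 0.667 for the 3 pairs within the GFP group and 0.385 to 0.453 within the scramble group. The scramble libraries were thus more alike than the GFP libraries. The largest distances from one control group to the other, 0.623 to 0.682, were those of GFP library 2 to scramble libraries 1 to 3 and of GFP library 1 to scramble library 1. For scale, the median distance was 0.701 from Activin A to GFP libraries, 0.699 from Gpnmb hairpin to scramble libraries, and 1.019 from NASH diet GFP to chow GFP libraries.

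**Figure D1:**
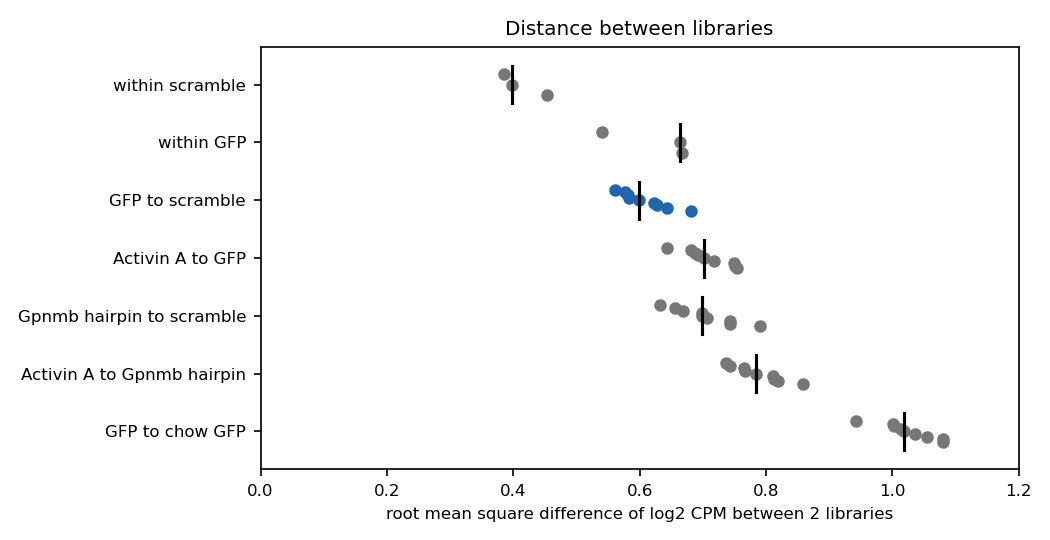
Distance between 2 libraries, as the root mean square difference of log2 CPM over 15665 genes (x axis), for pairs within and between groups (y axis). Points are pairs of libraries and bars are medians; the 9 GFP to scramble pairs (blue) run from 0.562 to 0.682, over the range of the pairs within the GFP group.

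Of 15103 genes tested with edgeR's quasi-likelihood test, 49 (0.324%) passed an adjusted p of 0.05 between the controls: 20 (0.132%) were higher and 29 (0.192%) lower in scramble livers, 27 of them by at least 2-fold. At an unadjusted p under 0.05 there were 2891 of the 15103. The 3 scramble and 3 GFP libraries did not overlap for 25% of the genes tested, 14.1% with scramble higher and 10.9% with scramble lower. These shares of all genes are the background for the counts of list members given below. DESeq2 called 688 genes (5.32% of 12923), 269 higher (2.08%) and 419 lower (3.24%), with 46 of the 49 among them. Limma-voom called 45 (0.298%), 19 higher (0.126%) and 26 lower (0.172%), with 40 of the 49 among them. The count turned on single libraries. Without GFP library 3 edgeR called 2032 genes (13.1% of 15508), 997 higher (6.43%) and 1035 lower (6.67%), with all 49 among them. Without scramble library 3 it called 0 higher and 3 lower (0.0194%), with 1713 at an unadjusted p under 0.05. Without scramble library 1 it called 2 higher and 5 lower (0.0451% together), and without scramble library 2 it called 2 and 4 (0.0388%). Without GFP library 2 the counts were 6 and 16 (0.141%), and without GFP library 1 they were 16 and 37 (0.342%), with 23 of the 49. The 3 genes called without scramble library 3 were Igfbp1, Serpina1e and Btg2, which were also called whichever other library was left out. Every other difference named below lost its call without scramble library 3. Without it Pltp differed by 1.00 (edgeR adjusted p = 0.114), Gm15427 by -1.14 (edgeR adjusted p = 0.0726) and Igkc by -2.29 (edgeR adjusted p = 0.221) on the log2 scale.

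**Figure D2:**
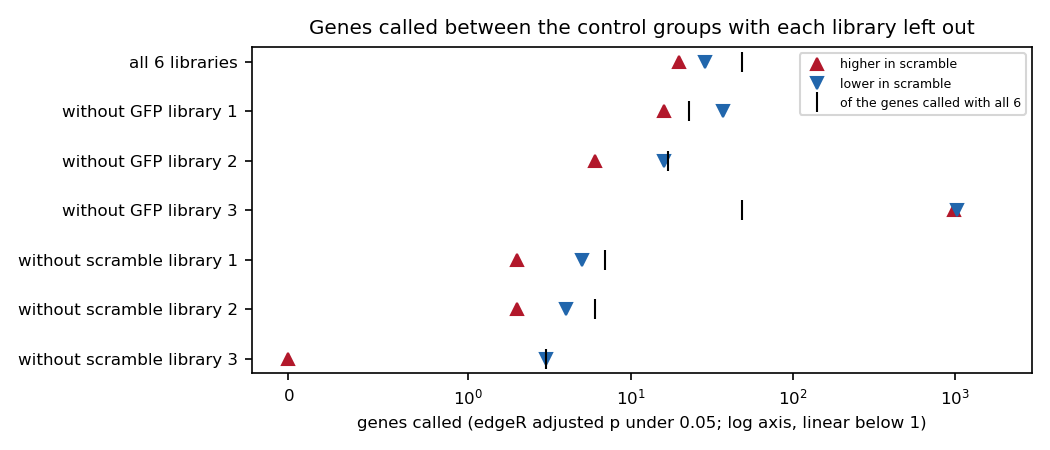
Number of genes called between scramble and GFP livers (x axis, log scale that is linear below 1) with all 6 libraries and with each library left out (y axis). Upward triangles are genes higher in scramble, downward triangles genes lower in scramble, and bars those among the 49 called with all 6. Leaving out GFP library 3 gave 997 higher and 1035 lower, and leaving out scramble library 3 gave 0 and 3.

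Transcripts of 2 proteins that hepatocytes secrete fell most clearly in scramble livers. Igfbp1 (ENSMUSG00000020429, GRCm38 chromosome 11, 7197782 to 7202546) encodes insulin-like growth factor binding protein 1, which is high in fasting and repressed by insulin. It stood at 226, 325 and 263 CPM in the GFP libraries and 48.8, 65.6 and 60.2 CPM in the scramble libraries. Every scramble library was below every GFP library, and the mean was 4.67-fold lower (log2 difference -2.25 ± 0.16, edgeR adjusted p = 0.00170). Activin A livers held 208, 162 and 186 CPM, Gpnmb hairpin livers 316, 219.6 and 246 CPM and chow livers 82.2, 71.3 and 126 CPM. The scramble libraries lay below every other library of the series, those of chow livers included. Serpina1e (ENSMUSG00000072849, chromosome 12, 103946931 to 103958975) encodes an antitrypsin of the mouse Serpina1 cluster and is higher in male liver. It stood at 533, 628 and 846 CPM in the GFP libraries and 135, 142 and 134 CPM in the scramble libraries, 4.88-fold lower (-2.31 ± 0.17 on the log2 scale, edgeR adjusted p = 0.00170). The scramble libraries were the lowest of the series: Activin A libraries held 1555 to 1606 CPM, Gpnmb hairpin libraries 1239 to 1561 CPM and chow libraries 13302 to 16265 CPM. The near-identical paralogs were not called. Serpina1a differed by 0.04 ± 0.16, Serpina1b by -0.03 ± 0.14, Serpina1c by -0.03 ± 0.23 and Serpina1d by 0.07 ± 0.19 on the log2 scale, with edgeR adjusted p-values of 0.918, 0.937, 0.952 and 0.884. With the counting of shared reads not given in the sources used here, the split of reads between Serpina1e and its paralogs is uncertain.

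Both lists that hold these genes were otherwise without calls. Of 13 fasting genes tested, Igfbp1 was the only call (7 at an unadjusted p under 0.05), and the list's median was -0.41 on the log2 scale, against -0.004 for all genes tested. Of 21 male-biased genes tested, Serpina1e was the only call (6 unadjusted), with a list median of 0.04. Of 18 hepatokine genes, which encode secreted metabolic regulators, Igfbp1 was again the only call; Igfbp2 stood at 349, 444 and 969.8 CPM in GFP and 682, 564 and 587 CPM in scramble libraries and Fgf21, a fasting and stress hormone gene, at 13.1, 16.1 and 20.0 and 9.75, 13.9 and 11.1 CPM. GFP and scramble values overlapped for Igfbp2 and for Fgf21.

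The promoter of Igfbp1 is shown because the gene was called whichever library was left out and is a textbook target of FOXO factors, which insulin signalling holds out of the nucleus. The RefSeq window (GRCm38) covers the 250 bases before the start, chr11:7197537-7197786 on the plus strand, with the FOXO element CAAAACAA in capitals. The promoter of Btg2, described next, covers chr1:134079156-134079405 and is written 5′ to 3′ on the minus strand, with the cyclic AMP response element TGACGTCA in capitals.
Igfbp1: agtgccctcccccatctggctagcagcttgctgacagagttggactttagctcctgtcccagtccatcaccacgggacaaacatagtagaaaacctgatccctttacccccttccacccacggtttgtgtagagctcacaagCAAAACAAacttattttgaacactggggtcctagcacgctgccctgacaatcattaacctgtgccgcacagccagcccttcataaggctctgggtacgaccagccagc
Btg2: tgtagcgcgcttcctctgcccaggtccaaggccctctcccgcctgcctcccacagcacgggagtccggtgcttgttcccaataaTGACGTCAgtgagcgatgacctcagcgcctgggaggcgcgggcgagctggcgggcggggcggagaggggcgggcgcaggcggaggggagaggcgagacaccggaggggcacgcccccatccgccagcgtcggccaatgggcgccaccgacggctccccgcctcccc
Each element occurs once, 108 bases before the start in Igfbp1 and 166 bases before it in Btg2, counted from the element's first base. Searched on both strands in 32851 promoters of the same length, CAAAACAA was found in 2.21% and TGACGTCA in 1.55%. Both motifs were chosen after the called genes were known. The matches describe these letters and show no binding.

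Immediate early genes, which are switched on within minutes by growth factors, stress or tissue handling, were lower in scramble livers for 3 of 18 members. Btg2 (ENSMUSG00000020423, chromosome 1, 134075170 to 134079120), an antiproliferative gene induced by p53 and by cyclic AMP, stood at 64.3, 63.5 and 53.2 CPM in GFP libraries and 18.2, 24.2 and 20.2 CPM in scramble libraries, 2.89-fold lower (-1.55 ± 0.13 on the log2 scale, edgeR adjusted p = 0.00303). The groups were well apart. Junb, a subunit of the AP-1 transcription factor, stood at 51.3, 80 and 62.3 CPM and 34.8, 35.6 and 32.5 CPM (-0.93 ± 0.15, edgeR adjusted p = 0.0470). Jund, another AP-1 subunit, stood at 62.2, 66.7 and 59.8 CPM and 39.5, 43.8 and 43.6 CPM (-0.59 ± 0.09, edgeR adjusted p = 0.0401). Not all members went this way. Fos, the AP-1 partner that responds fastest, stood at 9.79, 8.43 and 13.4 CPM in GFP and 14.2, 12.7 and 17.0 CPM in scramble libraries (0.46 ± 0.19, edgeR adjusted p = 0.23). Egr1 was lower on average, at 39.9, 66.2 and 74.6 and 30.4, 47.1 and 38.9 CPM (-0.66 ± 0.23, edgeR adjusted p = 0.178). In both genes the groups overlapped, and neither was called. Over the list 14 of 18 members had an unadjusted p under 0.05, 9 were lower and 2 higher without overlap, and the median was -0.48. DESeq2 called 8 members lower. The list's summed level was 686 to 717 CPM in GFP and 478 to 506 CPM in scramble libraries. Of the 19 RefSeq promoters matched to 15 of the list's genes, 2 held the cyclic AMP element (Btg2 and Dusp1) and 4 the E-box CACGTG (6.02% of all promoters). The D-box TTATGTAA, the interferon-stimulated response element and the heat shock element were found in 0 of the 19, against 0.819%, 2.98% and 0.466% of all promoters.

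Other regulators fell too. Zbtb16, a transcription factor gene that glucocorticoids induce, stood at 45.3, 47.0 and 41.3 CPM in GFP libraries and 10.7, 20.5 and 15.7 CPM in scramble libraries, 2.85-fold lower (-1.53 ± 0.20, edgeR adjusted p = 0.0288). The cell cycle inhibitor gene Cdkn1a, a p53 target, stood at 41.7, 54.1 and 54.4 and 30.5, 26.7 and 30.1 CPM (-0.80 ± 0.12, edgeR adjusted p = 0.0404). It was the only call among 19 genes of AAV sensing and the DNA damage response, whose median was -0.16. Efna1, which encodes a membrane-bound ligand of Eph receptors, stood at 49.4, 45.1 and 32.6 and 17.8, 22.8 and 20.3 CPM (-1.08 ± 0.16). Atf5, a stress-induced transcription factor gene, stood at 345, 401 and 371 and 240.1, 243 and 240 CPM (-0.65 ± 0.10). Cyp7a1 was higher but missed the threshold: this gene of the rate-limiting enzyme of bile acid synthesis stood at 180.2, 89.0 and 197 CPM in GFP and 478, 384 and 425 CPM in scramble libraries (1.44 ± 0.26, edgeR adjusted p = 0.0614), with no overlap. Of the remaining genes called lower that code for proteins, Erp29 (an endoplasmic reticulum protein), Cln8, Tceal9, Swi5 and Taf15 differed by -0.87 to -0.58 on the log2 scale.

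Antibody transcripts were lower in scramble livers. Jchain (ENSMUSG00000067149, chromosome 5, 88519809 to 88527891), the joining chain of secreted IgA and IgM made by plasma cells, stood at 3.62, 3.31 and 7.59 CPM in GFP libraries and 0.794, 0.970 and 0.555 CPM in scramble libraries, 6.26-fold lower (-2.66 ± 0.40, edgeR adjusted p = 0.0404). The kappa constant gene Igkc stood at 20.6, 8.67 and 24 and 3.40, 3.97 and 4.55 CPM (-2.17 ± 0.34, edgeR adjusted p = 0.0427), and the variable gene Igkv3-2 at 2.56, 0.862 and 3.12 and 0.0882, 0.176 and 0.119 CPM (-4.05 ± 0.61). GFP library 2 was the lowest of the GFP group for all 3 and still above every scramble library. Ighm, the IgM heavy chain gene, stood at 35.8, 15.2 and 51.7 and 8.43, 9.30 and 10.1 CPM (-1.90 ± 0.36, edgeR adjusted p = 0.0660) and was not called. Of 11 B and plasma cell markers tested 2 were called, both lower, and 7 had an unadjusted p under 0.05; the list's median was -1.21. The 13 markers summed to 35.5 to 100 CPM in GFP and 18.8 to 21.4 CPM in scramble libraries. Of its B cell markers Cd79a stood at 1.68, 0.910 and 1.72 CPM in GFP and 0.971, 0.661 and 0.594 CPM in scramble libraries and Ms4a1 at 1.68, 0.910 and 0.807 and 0.441, 0.265 and 0.436 CPM. In bulk tissue, fewer cells of a type and less RNA per cell cannot be told apart. Chow GFP livers held 2.49, 2.68 and 3.45 CPM of Jchain and 7.90, 8.13 and 10.8 CPM of Igkc, above every scramble library. Of 8 immunoglobulin genes tested by edgeR and limma-voom, edgeR called 2 and limma-voom 0, and of the 5 to which DESeq2 gave an adjusted p it called 3.

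Markers of tissue next to the liver varied between libraries. The 11 adipose and muscle markers summed to 18 to 94.0 CPM in GFP and 24.7 to 33.8 CPM in scramble libraries. Most of this was Cfd, at 16.2, 71.8 and 63.6 CPM in GFP and 33.4, 24.6 and 27.8 CPM in scramble libraries (-0.84 ± 0.43, edgeR adjusted p = 0.322). Its groups overlapped, with GFP library 1 below every scramble library. Acta1, the skeletal muscle actin gene, stood at 0.0882, 7.09 and 8.45 CPM in GFP libraries and 0 in the 3 scramble libraries, and Adipoq, the adiponectin gene of fat cells, at 0.838, 0.383 and 0.484 CPM against 0, 0.0441 and 0.0396 CPM. The 12 pancreas markers in the tables summed to 8.77 to 14.0 CPM in GFP and 9.35 to 10.7 CPM in scramble libraries, most of it Cela1, an elastase gene, at 10.5, 13.5 and 7.70 and 8.96, 9.35 and 9.78 CPM, while Cpa1 had 0 counts in all 6 libraries and Pnlip at most 0.0882 CPM. The 9 erythroid and blood markers summed to 107 to 152 CPM and 118 to 170.5 CPM, with Hbb-bs, a beta globin gene, at 22.8, 15.4 and 43.7 and 51.2, 31.7 and 37.4 CPM. The part of these tissues in the antibody and other results was not tested. The called genes Gldn and Gucy2c had low counts. Gldn, which encodes gliomedin, a protein of peripheral nerve, had 92, 29 and 23 counts in the GFP libraries and 0, 1 and 1 in the scramble libraries. Gucy2c, the guanylin receptor gene of the intestine, stood at 2.82, 2.06 and 1.40 CPM in GFP and 0.353, 0.176 and 0.238 CPM in scramble libraries (-3.04 ± 0.44, edgeR adjusted p = 0.0383).

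The 20 genes called higher in scramble livers differed by 0.52 to 1.74 on the log2 scale. Pltp (ENSMUSG00000017754, chromosome 2, 164839518 to 164857711), the phospholipid transfer protein gene of high-density lipoprotein remodelling, stood at 54.9, 41.6 and 50.4 CPM in GFP libraries and 98.7, 100.2 and 99.9 CPM in scramble libraries, 2.03-fold higher (1.00 ± 0.11, edgeR adjusted p = 0.0100). Hipk2, a nuclear kinase gene of the stress and p53 pathways, stood at 45.5, 25.7 and 36.6 and 75.8, 80.7 and 77.2 CPM, 2.17-fold higher (1.09 ± 0.17, edgeR adjusted p = 0.0444). Tsc22d1, which encodes a leucine zipper protein induced by TGF-beta, stood at 103, 75.2 and 93.5 and 157, 177 and 167 CPM (0.86 ± 0.12, edgeR adjusted p = 0.0381). In each of these 3 the scramble libraries lay above all GFP libraries and within a narrow range. Slc16a11, a monocarboxylate transporter gene linked to diabetes risk, stood at 13.9, 12.7 and 17.8 and 25.1, 29.6 and 27.6 CPM (0.87 ± 0.14). Atp5k, a subunit gene of ATP synthase, stood at 14.1, 12.5 and 15.9 and 25.5, 24.6 and 26.0 CPM (0.82 ± 0.11), Abcc10, an ABC transporter gene, at 16.9, 14.4 and 17.1 and 27.8, 24.6 and 26.0 CPM (0.67 ± 0.11), Pdpr, a regulator of pyruvate dehydrogenase phosphatase, at 21.7, 22.4 and 26.3 and 38.8, 37.7 and 39.3 CPM (0.70 ± 0.10), and Ttc7 at 64.3, 62.9 and 60.4 and 88.8, 94.8 and 89.2 CPM (0.52 ± 0.08). The antisense transcripts Gm15622 and Gm28836, the unclassified Gm45909 and 4933411K16Rik were higher by 1.34 to 1.74 on the log2 scale. Gm15622 stood at 5.47, 6.23 and 7.80 CPM in GFP and 24.4, 19.0 and 22.7 CPM in scramble libraries, and it was called in 5 of the 6 fits that left out a library.

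**Figure D3:**
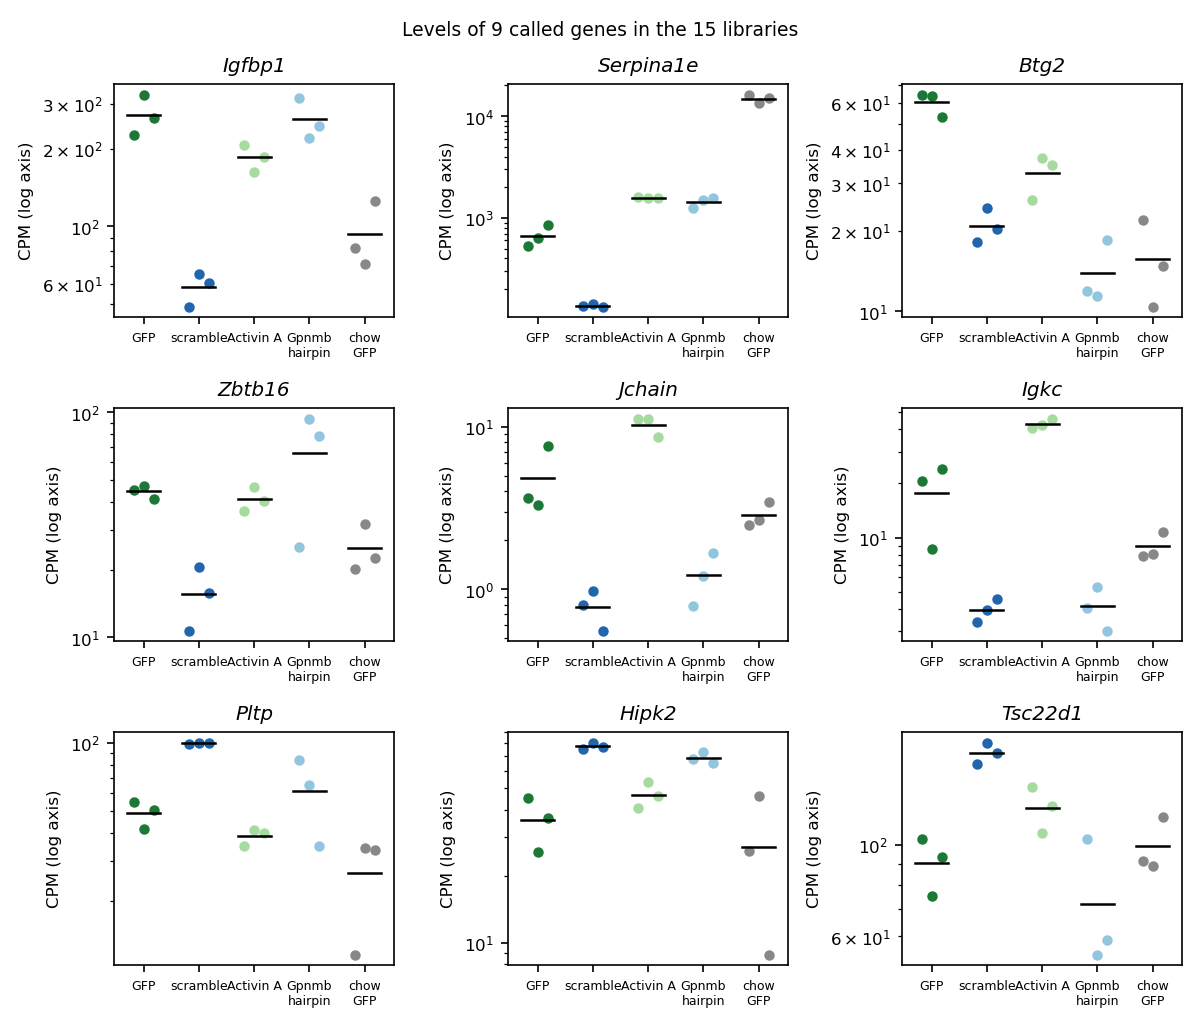
Levels of 9 genes called between scramble and GFP livers in each of the 15 libraries (y axis, CPM on a log axis), by group (x axis; all groups but chow GFP ate the NASH diet). Points are libraries and bars are group means of 3. The scramble libraries are the lowest of the series for Igfbp1 and Serpina1e, and the Gpnmb hairpin libraries share their low Igkc and Jchain.

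Pseudogenes were frequent among the calls made with all 6 libraries. Of the 49 called genes 14 (28.6%) were pseudogenes, 6 higher and 8 lower, while pseudogenes were 4.26% of the genes tested. By DESeq2 they were 7.99% of the calls and 2.99% of the genes given an adjusted p. The share of calls was not above that of genes tested without GFP library 3, at 4.48% of 2032 calls and 4.49% of genes, and no pseudogene was among the 3 calls made without scramble library 3. A further 3 were ribosomal protein genes, of 78 tested. A processed pseudogene is a copy of a messenger RNA that was written back into the genome, so its reads are hard to tell from those of the gene it came from. Of the 14 called pseudogenes 12 matched the coding sequence of a gene, 11 of them at an identity of 98.1% to 100%. None of the 10 parent genes that were tested was called, where 0.324% of all genes tested were. Some parents leaned the same way as their copies. Rpl23a differed by -0.58 ± 0.16 (edgeR adjusted p = 0.112) and Ptma by -0.48 ± 0.10 (edgeR adjusted p = 0.0686). Ndufab1 (-0.1 ± 0.13) and Rpl7a (-0.25 ± 0.11) were lower on average while their copies were higher. Stretches of 60 bases aligned to the parent (GENCODE transcripts, GRCm38) are printed for 2 of the pseudogenes. The mismatched bases are in capitals, to show how little separates copy and parent.
Gm6472: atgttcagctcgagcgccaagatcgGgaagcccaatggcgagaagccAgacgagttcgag
Rps7: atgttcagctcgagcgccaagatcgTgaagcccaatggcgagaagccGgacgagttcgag
Rpl21-ps15: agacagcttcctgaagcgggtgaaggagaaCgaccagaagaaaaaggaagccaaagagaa
Rpl21: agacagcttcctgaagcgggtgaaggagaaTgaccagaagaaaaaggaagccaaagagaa

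The pseudogene Gm15427 (ENSMUSG00000081051, chromosome 1, 95498621 to 95499151) stood at 39.2, 46.5 and 37.0 CPM in GFP libraries and 19.2, 18.5 and 19.7 CPM in scramble libraries (-1.12 ± 0.11, edgeR adjusted p = 0.00620). The groups did not overlap. Gm6472 (chromosome X, 152909505 to 152910155), a copy of Rps7 at 99.5% identity over 582 bases, stood at 56.6, 65.1 and 49.3 and 29.8, 28.9 and 27.8 CPM (-1.01 ± 0.11, edgeR adjusted p = 0.0120), and Rps7 at 139, 157 and 125 and 131, 129.9 and 131 CPM (-0.13 ± 0.11, edgeR adjusted p = 0.559). The copy differed and the parent was not called. Rpl21-ps15 (chromosome X, 151215167 to 151215649), a copy of Rpl21 at 99.4% identity over 480 bases, stood at 33.4, 42.2 and 32.1 and 18.8, 19.4 and 17.7 CPM (-0.97 ± 0.12), and Rpl21 at 17.1, 17.6 and 39.4 and 23.4, 20.8 and 20.6 CPM. GFP library 3 held the highest Rpl21 and the lowest Rpl21-ps15 of its group. The copies Rpl14-ps1, Gm10335 (of Rpl23a), Rps2-ps13, Gm9800 (of Ptma) and Gm8325 were lower by 0.65 to 1.71 on the log2 scale. Among pseudogenes that were higher, Rpl7a-ps5 stood at 3.18, 2.06 and 3.77 and 7.72, 8.51 and 9.39 CPM, Ndufab1-ps at 5.29, 5.89 and 3.66 and 13.1, 10.4 and 12.7 CPM, and Cyp2d38-ps, of a cytochrome P450 family, at 35.6, 27.2 and 42.1 and 78.5, 64.8 and 67.2 CPM. Gm8941, whose best coding match was Gapdh at 87.5%, and Gm18337, without a match, were higher by 0.88 and 1.23.

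Ribosomal protein genes moved both ways. Rpl36a stood at 69.1, 70.1 and 62.2 CPM in GFP libraries and 36.4, 34.6 and 35.7 CPM in scramble libraries (-0.94 ± 0.09, edgeR adjusted p = 0.00527). Rpl39 stood at 25.1, 33.4 and 31.6 and 59.6, 53.6 and 58.1 CPM (0.90 ± 0.12, edgeR adjusted p = 0.0288) and Rps29 at 31.2, 31.2 and 36.1 and 53.3, 53.7 and 56.4 CPM (0.71 ± 0.09, edgeR adjusted p = 0.0286). Of 34 listed cytosolic ribosomal protein genes, Rps29 was the only call; 18 had an unadjusted p under 0.05, 19 were lower and 3 higher without overlap, and the median was -0.24. Mitochondrial sequences also went both ways. Gm28661 (chromosome 1, 24614885 to 24615565) is a nuclear copy of the mitochondrial cytochrome oxidase gene mt-Co2, identical over all 681 bases, and stood at 44.6, 50.5 and 48.9 CPM in GFP libraries and 119, 93.4 and 105 CPM in scramble libraries (1.12 ± 0.11, edgeR adjusted p = 0.00620). The parent mt-Co2 stood at 61.5, 90.9 and 61.8 and 132, 78.5 and 84.6 CPM. Since the sequences are the same, reads of one cannot be told from reads of the other. The histidine transfer RNA gene mt-Th, which is cut out of the mitochondrial transcript, stood at 22.1, 13.6 and 23.0 and 6.88, 6.17 and 7.88 CPM (-1.5 ± 0.21, edgeR adjusted p = 0.0332). Of the 12 listed genes of the mitochondrial genome edgeR called 0, DESeq2 2 lower and limma-voom 0, with 2 at an unadjusted p under 0.05.

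**Figure D4:**
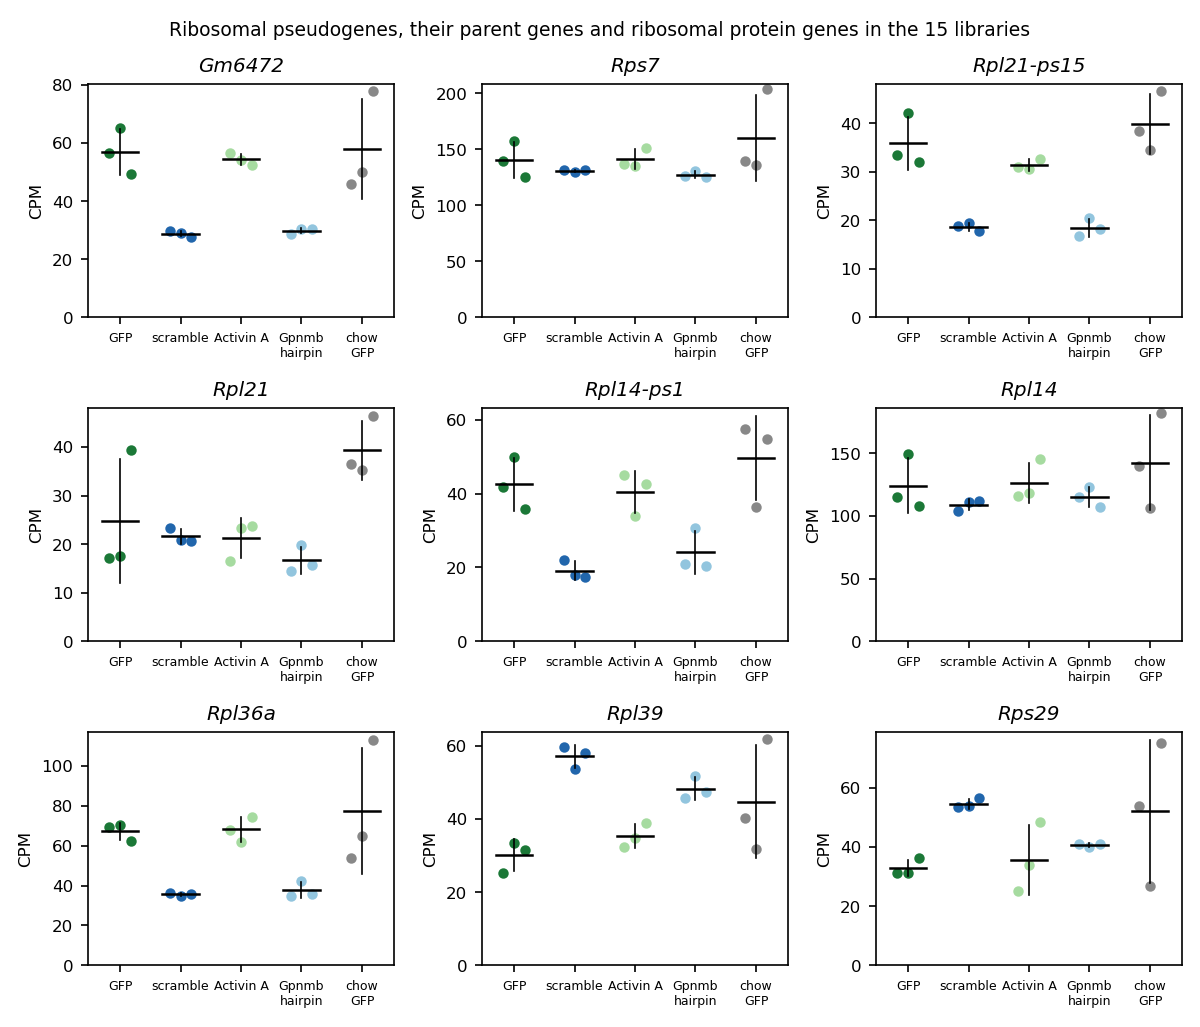
Levels (y axis, CPM) of 3 ribosomal pseudogenes, each followed by its parent gene, and of 3 ribosomal protein genes in the 15 libraries by group (x axis). Points are libraries, horizontal bars means and vertical bars ± 1 SD of 3. Gm6472, Rpl21-ps15, Rpl14-ps1 and Rpl36a are low in both H1 groups, while Rps7 lies at a like level in the 4 NASH diet groups.

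Most stress response genes had lower values in scramble livers and did not pass the threshold. Of 23 genes of the unfolded protein and ATF4 response, which restore protein folding and amino acid supply, edgeR called 0, 20 had an unadjusted p under 0.05, and 18 were lower and 1 higher without overlap (median -0.83). DESeq2 called 15 lower and limma-voom 0. Hspa5, the main chaperone gene of the endoplasmic reticulum, stood at 659.8, 1051 and 512 CPM in GFP libraries and 355, 385 and 369.7 CPM in scramble libraries (-1.03 ± 0.23, edgeR adjusted p = 0.0840). Sdf2l1, another gene of that compartment, stood at 14.2, 27.5 and 10.2 and 6.84, 6.31 and 6.14 CPM, and Asns, the asparagine synthetase gene under ATF4, at 4.85, 2.49 and 4.68 and 0.794, 2.03 and 1.31 CPM. GFP library 3 was the nearest GFP library to the scramble mean for 20 of these 23 genes, against 43.4% of all genes tested. Without it edgeR called 17 of 23 lower and 0 higher. Of 14 heat shock genes edgeR called 0, DESeq2 6 lower and limma-voom 1 lower, with 10 at an unadjusted p under 0.05 and a median of -0.51. Hspa8, the constitutive cytosolic chaperone gene, stood at 1202, 1638 and 1341 and 749, 855 and 789.9 CPM (-0.83 ± 0.14, edgeR adjusted p = 0.0527), with no overlap. Without GFP library 3, 11 of the 14 were called lower.

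Fat and sterol synthesis genes showed how far the GFP libraries differed among themselves. Fasn, the fatty acid synthase gene, stood at 1749.8, 761 and 192 CPM in the GFP libraries and 296, 375 and 346 CPM in the scramble libraries. Acly, which makes cytosolic acetyl-CoA, stood at 385, 214 and 87.9 and 100.3, 100.1 and 99.7 CPM, and Thrsp, a lipogenic gene, at 793, 443 and 44.0 and 162, 141 and 151 CPM. In these 3 genes GFP libraries 1 and 2 were above every scramble library, while library 3 lay below all of them. Of 25 cholesterol genes edgeR called 0, DESeq2 4 lower and limma-voom 0, with 9 at an unadjusted p under 0.05 and a median of -0.62. Of 20 lipogenesis genes edgeR called 0, DESeq2 1 lower and limma-voom 0, with 7 at an unadjusted p under 0.05 and a median of -0.41. Without GFP library 3 the calls were 1 higher and 15 lower of 25, and 1 higher and 11 lower of 20. Scd1, the desaturase gene that makes monounsaturated fat, stood at 39311, 28843 and 18128 CPM in GFP and 33702, 33934 and 33830 CPM in scramble libraries. GFP library 3 was again the lowest of the 6. Of 26 genes of fat oxidation and PPARA, the receptor that senses fatty acids, edgeR called 0, DESeq2 1 higher and 1 lower and limma-voom 0, with 5 at an unadjusted p under 0.05 and a median of 0.21. Without GFP library 3 edgeR called 14 of them higher and 1 lower.

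Acute phase genes, which the liver makes in response to interleukin 6 and injury, turned on another library. Saa1, a serum amyloid gene, stood at 81.1, 989.8 and 85.1 CPM in GFP libraries and 48.4, 67.7 and 61.3 CPM in scramble libraries, and Saa2 at 43.0, 886 and 53.8 and 25.6, 41.2 and 37.6 CPM. Lcn2, a siderophore-binding protein gene, stood at 53.2, 181 and 41.6 and 31.0, 52.0 and 40.8 CPM, and Mt1, a metallothionein gene, at 63.0, 512 and 77.1 and 136, 78.2 and 103 CPM. GFP library 2 was the highest of the 6 for these 4 genes. Of 28 acute phase genes edgeR called 0, DESeq2 5 lower and limma-voom 0, with 12 at an unadjusted p under 0.05 and a median of -0.45. Hamp, the hepcidin gene, had the smallest p, at 477, 775 and 495 and 376, 211 and 289 CPM (-1.02 ± 0.24, edgeR adjusted p = 0.0909).

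**Figure D5:**
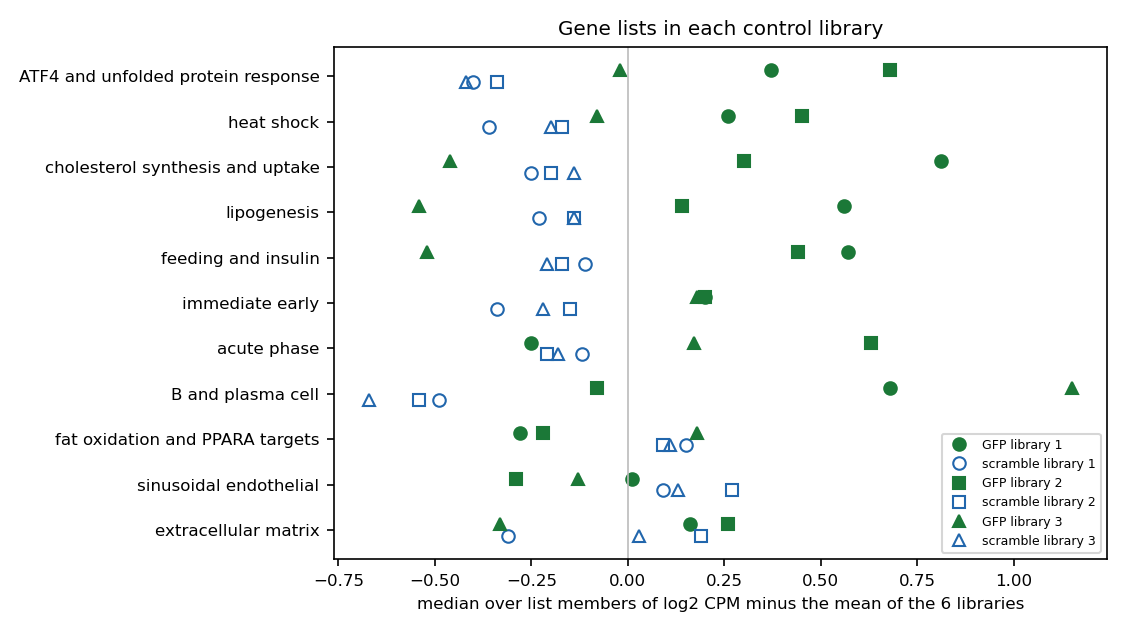
Level of 11 gene lists in each of the 6 control libraries, as the median over list members of log2 CPM (offset 0.1) minus the mean of the 6 libraries (x axis), by list (y axis). Filled green symbols are GFP and open blue symbols scramble libraries. GFP library 3 lies at -0.46 for cholesterol synthesis where GFP libraries 1 and 2 lie at 0.81 and 0.30, and GFP library 2 lies at 0.63 for acute phase genes.

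Of the marker lists for cells of the diseased liver, only that of B and plasma cells held a call. In the lipid-associated macrophage list edgeR, DESeq2 and limma-voom called 0 of 20, with 1 at an unadjusted p under 0.05 and a median of -0.04. These macrophages gather around dying hepatocytes and scars. The list held Trem2 at 10.7, 10.3 and 9.74 CPM in GFP and 7.59, 9.79 and 9.19 CPM in scramble libraries and the macrophage elastase gene Mmp12 at 22.9, 16.9 and 21.4 and 18.5, 27.6 and 25.3 CPM. Of 30 extracellular matrix genes 0 were called by any of the 3 tools (1 at an unadjusted p under 0.05; median -0.10), and Col1a1, a fibrillar collagen gene, stood at 61.9, 67.3 and 32.2 and 43.6, 82.6 and 63.7 CPM. Of 11 markers of Kupffer cells, the resident macrophages, 0 were called by any of the 3 tools (4 unadjusted; median 0.15), with Clec4f at 101, 77.2 and 115 and 113, 106 and 105 CPM. Of 17 stellate cell and myofibroblast markers 0 were called by edgeR and limma-voom and 1 higher by DESeq2 (3 unadjusted, median -0.01). Without overlap 4 were higher and 0 lower, against 14.1% higher and 10.9% lower among all genes tested. The list summed to 474 to 531 CPM in GFP and 553 to 580.4 CPM in scramble libraries. Reln, which encodes the secreted protein reelin and had the smallest p of the list, stood at 79.1, 53.9 and 67.2 and 112, 108 and 107 CPM (0.69 ± 0.13, edgeR adjusted p = 0.0660). Lrat, the retinol-storage enzyme gene, stood at 46.0, 28.2 and 22.3 and 25.3, 27.8 and 28.6 CPM and the smooth muscle actin gene Acta2 at 6.97, 9.34 and 4.2 and 4.50, 5.95 and 5.47 CPM, both with overlap. Sinusoidal endothelial markers had a median of 0.28, with 8 of 18 at an unadjusted p under 0.05, 8 higher and 0 lower without overlap, 0 calls by edgeR and limma-voom and 3 higher by DESeq2. Stab2, a hyaluronan receptor gene of these cells, stood at 56.3, 37.8 and 61.1 CPM in GFP and 76.4, 90.1 and 84.2 CPM in scramble libraries (0.67 ± 0.16, edgeR adjusted p = 0.0926). Biliary and injury markers varied within both groups: Krt19, a cholangiocyte keratin gene, stood at 3.62, 4.07 and 1.35 and 1.15, 2.91 and 1.39 CPM. Of 7 T and NK cell markers tested 0 were called by any of the 3 tools (4 unadjusted), and the median was -1.0. The list's 13 markers summed to 12 to 14.3 CPM in GFP and 8.03 to 9.11 CPM in scramble libraries. Trbc2, a constant gene of the T cell receptor, had the smallest p and stood at 2.07, 1.49 and 0.700 and 0.265, 0.441 and 0.238 CPM (-2.20 ± 0.51, edgeR adjusted p = 0.0890), without overlap, and Cd3e, a subunit gene of the receptor complex, at 0.221, 0.862 and 0.431 and 0.485, 0.220 and 0.277 CPM, with overlap.

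Sex-biased and xenobiotic genes differed in single members. Cyp2b9, a P450 gene of female mouse liver, stood at 13.9, 17.4 and 3.34 CPM in GFP libraries and 38.4, 47.4 and 44.6 CPM in scramble libraries (1.88 ± 0.42, edgeR adjusted p = 0.0842), and at 0 in chow libraries. Cyp2a4, another such gene, stood at 109, 49.3 and 4.36 and 13.0, 19.9 and 15.9 CPM, with GFP libraries 1 and 2 above and library 3 below all scramble libraries. Gsta1, a glutathione transferase gene of the NRF2 response, stood at 26.0, 16.6 and 8.23 and 3.09, 5.34 and 4.32 CPM (-2.02 ± 0.38, edgeR adjusted p = 0.0660). None of these 3 was called. The clock list had a median of -0.02, with 0 of 18 called by edgeR and limma-voom, 6 at an unadjusted p under 0.05 and 1 lower by DESeq2. Nfil3, the gene of a circadian repressor, had the smallest p of the list. It stood at 17.4, 36.4 and 26.0 and 12.9, 11.2 and 12.1 CPM (-1.16 ± 0.23, edgeR adjusted p = 0.0667), without overlap. Dbp, a clock output gene, stood at 95.4, 93.3 and 54.5 and 103, 121 and 109 CPM (0.43 ± 0.19, edgeR adjusted p = 0.266), also without overlap. Arntl, which encodes BMAL1, stood at 3.04, 2.87 and 13.1 and 6.00, 4.63 and 5.70 CPM, with overlap. GFP library 3 held the lowest Dbp and the highest Arntl of the 6. Across all 50 lists, 43 held no call by edgeR. Their 683 different genes included 205 at an unadjusted p under 0.05, 70 called by DESeq2 and 1 by limma-voom. Over all 15103 genes tested by edgeR, 2891 had an unadjusted p under 0.05. DESeq2 called 5.32% of the genes it tested and limma-voom 0.298%.

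The treated groups carry the same promoters in other libraries, so the contrast of H1 with TBG vectors can be repeated as Gpnmb hairpin minus Activin A. That contrast also holds the effects of both treatments. Of 14305 genes tested with edgeR there, 3858 (27.0%) were called, 1972 higher (13.8%) and 1886 lower (13.2%) with the hairpin. Of the 49 genes called between the controls, 36 were called in the treated arms too (73.5% of the 49 and 0.944% of the 3814 called there among genes tested in both): 10 higher in both, 19 lower in both and 7 in opposite directions. No library is shared between the contrasts. Without scramble library 3 and Activin A library 3, 1 gene was called in both, and without GFP library 3 there were 1000, 903 of them in the same direction.

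All 6 H1 libraries lay apart from all 6 TBG libraries of the NASH diet for 28 of the 49 genes, and for 4.94% of all genes tested. Since the 49 were chosen for a difference within 6 of these libraries, their share is given as a description. Among the 14 called pseudogenes it was 11, and among the 78 ribosomal protein genes 21 (20 of them lower with H1). Gm15427 stood at 42.0, 40.0 and 36.8 CPM in Activin A and 18.4, 18.4 and 19.4 CPM in Gpnmb hairpin libraries (-1.07 ± 0.10, edgeR adjusted p = 9.15e-06), close to its levels in the controls of the same promoter. Rpl36a stood at 67.9, 62.0 and 74.4 and 34.8, 42.3 and 35.8 CPM (-0.84 ± 0.10, edgeR adjusted p = 7.70e-05) and Gm28661 at 81.9, 51.9 and 53.0 and 117, 112 and 105 CPM (0.85 ± 0.15, edgeR adjusted p = 0.00119). Igkc stood at 40.8, 42.5 and 45.9 and 4.06, 5.31 and 3.03 CPM (-3.37 ± 0.16). Jchain stood at 11.2, 11.1 and 8.57 and 0.788, 1.21 and 1.68 CPM (-3.04 ± 0.26). Of 14 immunoglobulin genes tested 12 were called lower with the hairpin, against 13.2% of all genes. Activin A livers also differed from GFP livers here: the median of 15 immunoglobulin genes was 1.49, with 3 called higher. Against scramble, the hairpin gave a median of -0.1 over 6 such genes, with 0 called. Btg2 stood at 26.1, 37.4 and 35.1 and 11.9, 11.4 and 18.4 CPM (-1.23 ± 0.18), Swi5 at 74.6, 80.1 and 91.0 and 45.8, 50 and 45.3 CPM (-0.79 ± 0.09), and Taf15, an RNA-binding protein gene, at 51.6, 57.7 and 62.8 and 36.7, 38.6 and 35.8 CPM (-0.62 ± 0.09). Among genes higher with H1 in both, Hipk2 stood at 40.9, 53.4 and 46.2 and 67.8, 73.2 and 65.2 CPM (0.57 ± 0.10), Pltp at 35.1, 41.2 and 39.9 and 83.9, 65.0 and 35.2 CPM (0.67 ± 0.23), Rpl39 at 32.4, 34.8 and 39.0 and 45.7, 51.8 and 47.3 CPM (0.46 ± 0.10) and Pdpr at 27.0, 26.6 and 26.9 and 38.7, 38.6 and 42.6 CPM (0.59 ± 0.09).

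Other genes differed otherwise between the treated arms. An interaction test over the 12 NASH diet libraries, chosen after the data were seen, called 1088 of 15538 genes (7.0%), and 263 (1.65%) without scramble library 3 and Activin A library 3. Igfbp1, at 208, 162 and 186 CPM in Activin A and 316, 219.6 and 246 CPM in Gpnmb hairpin libraries, was 0.50 ± 0.13 higher with the hairpin, and its interaction was -2.76 ± 0.23 (edgeR adjusted p = 1.75e-05). Serpina1e differed by -0.13 ± 0.09 between the treated arms (interaction -2.19 ± 0.19, edgeR adjusted p = 3.29e-05). Zbtb16 differed by 0.69 ± 0.33 (interaction -2.24 ± 0.47, edgeR adjusted p = 0.0103). Tsc22d1, Efna1, Atf5, Ttc7, Slc16a11 and Gm45909 were called in opposite directions in the 2 contrasts, like Igfbp1. Igfbp1 and Serpina1e were thus lowest in scramble livers, with the other 3 NASH diet groups above, while Gm15427, Rpl36a and Igkc were lower in every library of both H1 groups than in any NASH diet library of the TBG groups.

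Which control is used changed the size of the treatment comparisons. Activin A minus GFP gave 242 genes higher and 564 lower (5.52% of 14598 called), and Activin A minus scramble 2223 and 2204 (29.9% of 14820). The Gpnmb hairpin minus scramble gave 1813 and 1788 (24.3% of 14845), and minus GFP 877 and 1176 (14.0% of 14661). These comparisons share treated libraries, and the spread of the GFP libraries enters every one made against them. With library size alone as the scaling, Activin A minus scramble gave 1319 higher and 3016 lower, with a median over all genes of -0.105 in place of -0.004, and the hairpin minus GFP gave 588 and 1430. Without scramble library 3 and Activin A library 3 the counts of Activin A minus scramble were 706 and 816.

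The values of single genes against each control are given side by side, for genes chosen after their values were seen. Gpnmb was -2.93 ± 0.27 in Activin A livers on the log2 scale against GFP and -2.96 ± 0.20 against scramble, and in hairpin livers -3.91 ± 0.34 and -3.95 ± 0.26. Mmp12 was -2.68 ± 0.19 and -2.88 ± 0.18 in Activin A livers, and Col1a1 -1.56 ± 0.24 and -1.77 ± 0.19. The monocyte receptor gene Ccr2 was -1.39 ± 0.17 and -0.91 ± 0.18, and Ctss, a lysosomal protease gene of macrophages, -1.32 ± 0.11 and -0.92 ± 0.07. Inhba, which encodes the subunit of Activin A, stood at 8.03, 7.86 and 8.13 CPM in GFP and 4.76, 6.04 and 5.86 CPM in scramble libraries and was 1.63 ± 0.11 and 2.18 ± 0.11 higher in Activin A livers; in hairpin livers it was 0.38 ± 0.17 against GFP (edgeR adjusted p = 0.161) and 0.92 ± 0.17 against scramble (edgeR adjusted p = 0.00325).

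Among genes of metabolism, Igfbp1 in Activin A livers was -0.57 ± 0.15 against GFP (edgeR adjusted p = 0.0594) and 1.68 ± 0.12 against scramble (edgeR adjusted p = 2.01e-06). In hairpin livers it was -0.05 ± 0.17 against GFP (edgeR adjusted p = 0.865) and 2.19 ± 0.14 against scramble (edgeR adjusted p = 1.08e-05). Serpina1e was 1.10 ± 0.18 and 3.41 ± 0.10 in hairpin livers against GFP and scramble, and 1.23 ± 0.16 and 3.54 ± 0.07 in Activin A livers. Fasn in Activin A livers was 0.70 ± 0.60 against GFP (edgeR adjusted p = 0.590) and 2.14 ± 0.21 against scramble (edgeR adjusted p = 3.00e-05). Igfbp2 was 0.09 ± 0.31 and 0.05 ± 0.08 in Activin A livers against GFP and scramble, and Scd1 0.49 ± 0.23 and 0.28 ± 0.07. Asns in hairpin livers was 1.5 ± 0.26 against GFP and 3.06 ± 0.27 against scramble. Cyp7a1 in hairpin livers was -0.56 ± 0.45 against GFP (edgeR adjusted p = 0.434) and -2.01 ± 0.38 against scramble (edgeR adjusted p = 0.00411). The difference between the values of a treated group against each control is the gap between the controls themselves, and of these genes only Igfbp1 and Serpina1e were called there.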

How the data were processed

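Liver RNA was sequenced from stranded poly(A) libraries, per the labels' protocols. The authors deposited raw counts per gene in 3 tables, each of 2 groups; the build is GRCm38 (mm10), per the submitters' processing notes. Aligner, counter, use of strand and reads with several matches: not given in the sources used here. The scramble and GFP columns come from different tables, which were joined on gene ID: 22606 genes were in both, and 1751 and 2065 were in one alone, with mean counts of at most 36.33 and 38.67. The GFP counts were the same in both tables that hold them. A table lists only genes with at least 2 counts in all. Dates had replaced 22 symbols, which were restored from the gene ID.

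The test was edgeR 4.0.16 (quasi-likelihood F test, two-sided, filterByExpr with a minimum count of 10, TMM, p-values adjusted by Benjamini-Hochberg across every gene in the test, threshold 0.05) in R 4.3.3, on the 6 libraries of each comparison. Differences are log2 fold changes ± SE. Alternatives were DESeq2 1.42.0, limma-voom 3.58.1, RLE and library size scaling, no filter, all 15 libraries, a replicate block, genes of one table kept as 0, and leaving out each library. The tests were tried on simulated data. The rule for named genes took Gpnmb, Inhba and Alb, the 10 highest and 10 lowest differences among called genes with a plain symbol, a mean log2 CPM of at least 1 and groups without overlap, the called members of each list or else its member of smallest p (the 4 of smallest p in a list with at least 3 calls), and, among genes called in both vector contrasts, the 6 each way whose p-values had the smallest product. All other genes named (the remaining calls, parents of pseudogenes, Serpina1 paralogs, Gapdh and members shown for a list's spread) were chosen after their values were seen. The groups and the gene lists were chosen with earlier results of these data known. Pseudogenes were aligned with BLAST to GENCODE coding sequences of GRCm38; promoters are RefSeq's, 250 bases before the start. Distances used log2 CPM with a prior count of 2.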

Additional observations from a re-analysis of the deposited data

Results flagged for a closer look

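Each gene below was marked because its difference between the control groups was not the same as the difference between the treated groups with the same vector types: in edgeR's quasi-likelihood interaction over the 12 NASH diet libraries its adjusted p was under 0.05. The value is the log2 difference scramble minus GFP, minus the log2 difference Gpnmb hairpin minus Activin A. The treated arms also carry the effects of Activin A and of the hairpin against Gpnmb, and the share of either in these values was not tested. Without scramble library 3 and Activin A library 3 the number of such genes over all those tested dropped from 1088 to 263.

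Secreted and hepatocyte genes made up one group. The value was -2.76 for Igfbp1, -2.19 for Serpina1e, -1.02 for Tat (tyrosine aminotransferase, a fasting gene), 2.26 for Cyp7a1, 5.7 for the P450 gene Cyp2b9 and 0.8 for Igfals, the acid-labile subunit that carries insulin-like growth factors. Cyp2b9 stood at 6.44, 4.93 and 6.56 CPM in Activin A and 1.15, 0.158 and 0 CPM in hairpin libraries. Tat stood at 1507, 1614 and 1122 CPM in GFP, 899.7, 609 and 739 CPM in scramble, 929, 1316 and 1167 CPM in Activin A and 1259.8, 1141 and 1132 CPM in hairpin libraries. Transcription factor and signalling genes gave -2.24 for Zbtb16, -1.91 for Nfil3 (a circadian repressor), -1.51 for Egfr (the epidermal growth factor receptor), -1.43 for Efna1, -0.99 for Atf5, 1.6 for Tsc22d1 and 0.7 for Inhba. Egfr stood at 258, 362 and 281 CPM in GFP, 204, 132 and 164 CPM in scramble, 285, 216 and 239 CPM in Activin A and 269, 462 and 404 CPM in hairpin libraries. Nfil3 stood at 17.4, 36.4 and 26.0, then 12.9, 11.2 and 12.1, then 24.4, 20.0 and 21.8 and then 35.0, 37.4 and 36.8 CPM in the same order of groups.

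The remaining protein-coding genes gave -1.1 for the chaperone gene Hspa8, -0.84 for the keratin gene Krt18, -0.71 for Cln8, -0.62 for Tceal9, -0.41 for the lipid droplet gene Plin3, 0.47 for the iron exporter gene Slc40a1, 1.12 for Ttc7 and 1.27 for Slc16a11. Genes without a protein name gave 1.49 for Gm15622, 1.66 for Gm8941, 2.14 for Gm28836 and 3.43 for Gm45909.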

How the results depend on the processing

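The number of genes called between scramble and GFP livers depended on the tool, the filter and single libraries. It was 10 higher and 13 lower with library size as the only scaling, 75 and 128 without a filter on low counts, 269 and 419 with DESeq2, and 27 and 88 with all 15 libraries in one fit. Leaving out 1 library gave 0 to 997 higher and 3 to 1035 lower; the highest counts came without GFP library 3 and the lowest without scramble library 3. For Gpnmb hairpin minus Activin A, leaving out 1 library gave 1224 to 1755 higher and 1226 to 1702 lower, lowest without Activin A library 3, and the fit of all 15 libraries gave 1195 and 1250. For Activin A minus scramble the ranges were 1361 to 2115 and 1421 to 2062, lowest without scramble library 3; library size gave 1319 higher, all 15 libraries 862 and 970, and leaving out scramble library 3 and Activin A library 3 together 706 and 816. For the hairpin minus GFP the ranges were 197 to 1738 and 390 to 1831, highest without GFP library 3 and below the full count without any of the other 5 libraries. Genes called in the same direction between controls and between treated arms numbered 98 higher and 178 lower with DESeq2, 6 and 11 with library size, 0 and 1 without scramble library 3 and Activin A library 3, and 456 and 447 without GFP library 3. Median distances between GFP and scramble, within GFP and within scramble libraries were 0.706, 0.783 and 0.462 with a prior count of 0.5, and 1.502, 1.571 and 0.813 over the 500 most variable genes. The cause of these shifts was not tested. Of the other values, including each named gene under each alternative, 1034 kept their direction and side of the threshold, 251 lost the threshold, 88 gained it and 0 changed direction past it.

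With the replicate number as a block, edgeR called 26 higher and 43 lower between the controls, 1730 and 1695 between the treated arms, 2156 and 2147 for Activin A minus scramble and 838 and 1050 for the hairpin minus GFP. The deviations of same-numbered scramble and GFP libraries correlated at -0.093, 0.087 and -0.016 across genes. Those of differently numbered scramble and GFP libraries ran from -0.142 to 0.151. Whether the numbers mark a shared litter or day was not tested. With 3 libraries a group, the number of libraries limits the precision; calls at reduced depth were not analysed here.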

Other observations

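Gapdh, a glycolysis gene often used as a reference, varied within groups. It stood at 88.5, 14.6 and 11.2 CPM in the GFP libraries, 8.47, 9.39 and 33.7 CPM in the scramble libraries, 70.6, 14.8 and 11.4 CPM in the Activin A libraries, 5.39, 100.3 and 6.54 CPM in the Gpnmb hairpin libraries and 82.9, 22.9 and 15.9 CPM in the chow libraries. In each group a single library stood well above the others. With the counting of shared reads not given in the sources used here, how far these values reflect the level of the gene is uncertain.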
